A study of Danio rerio with 4 samples.

Results

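The genes described here are 8 pituitary hormone genes (gh1, prl, pomca, cga, tshba, lhb, fshb and smtla) and 2 neurohypophysial peptide genes (avp and oxt), listed by symbol and looked up among the probe sets of the Affymetrix Zebrafish Genome Array. Of the 10 genes, 7 had a probe set, and cga had 2 (probe set A, with the higher mean signal, and probe set B). That gave 7 of the 8793 genes, and 8 of the 15502 probe sets other than controls, on the array. No probe set carried the symbol of lhb, fshb or smtla in the gene table used, so these genes were not analysed here. RNA was pooled from brains of adult Danio rerio, and each treatment group held males and females in equal number. The 2 arrays labelled cold-stressed, called cold 1 and cold 2 (cold-acclimated), came from fish cooled gradually and held at 10°C for 10 days, and the 2 labelled normal, normal 1 and normal 2, from control fish kept at 28°C. The sources used here do not give the strain, the exact age or the number of brains in a pool. The p-values, standard errors and intervals below rest only in part on the spread between 2 pools per condition. In limma this spread is drawn toward that of other probe sets with similar signal. Part of the spread between pools may be technical. The deposited values are 1 linear signal (intensity) per probe set and array, computed with MAS5. The names set 1 (cold 1 and normal 1) and set 2 (cold 2 and normal 2) stand only for a number shared in the labels, which do not say that these arrays were paired, and ratios within a set are descriptions.

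The labels and the likeness of the arrays disagreed. A filter on low signal kept 9301 probe sets (mean log2 signal at or above its 40th percentile, a signal of 74.5). Of these, 260 differed by at least 2-fold between cold 1 and normal 2, and 675 between cold 2 and normal 1. Within sets, 1295 differed by that much in set 1 and 579 in set 2. By this count cold 2 was nearer to normal 2 than to normal 1. Between arrays of the same label, 1105 differed by that much in cold and 1414 in normal. The labels were kept as given, and each value is printed per array. The median signal of an array lay between 96.3 and 101.8.

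The pituitary lies under the hypothalamus and releases hormones into the blood. In its glandular part, the adenohypophysis, separate cell types make growth hormone (gh1), prolactin (prl), somatolactin (smtla), proopiomelanocortin (pomca), which is cut into corticotropin and melanotropin, and the glycoprotein hormones, each made of a shared alpha subunit (cga) and its own beta subunit (tshba for thyrotropin, lhb and fshb for the gonadotropins). The neurohypophysial peptides are made instead in neurons of the hypothalamus and preoptic area, whose axons reach the pituitary. In fish they are vasotocin, encoded by avp, and isotocin, encoded by oxt, the counterparts of mammalian vasopressin and oxytocin.

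The probe sets fell apart along this line. Both peptide genes of brain neurons gave signals above the median of every array, whereas all 24 values of the 6 pituitary hormone probe sets lay below it. These 24 values ranged over signals of 10.1 to 88.7, or percentiles 1.3 to 46.5 of the probe sets on their arrays. No pituitary hormone probe set passed the filter on low signal, and both peptide probe sets did. Among the 7 genes measured, only the peptides of brain neurons thus gave a signal above the median. Detection calls were not used here, and signals of different probe sets do not rank transcripts, so a low signal is not evidence that a transcript, or the cells that make it, was absent, and the presence of pituitary tissue in the pools was not settled by these values.

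**Figure D1:**
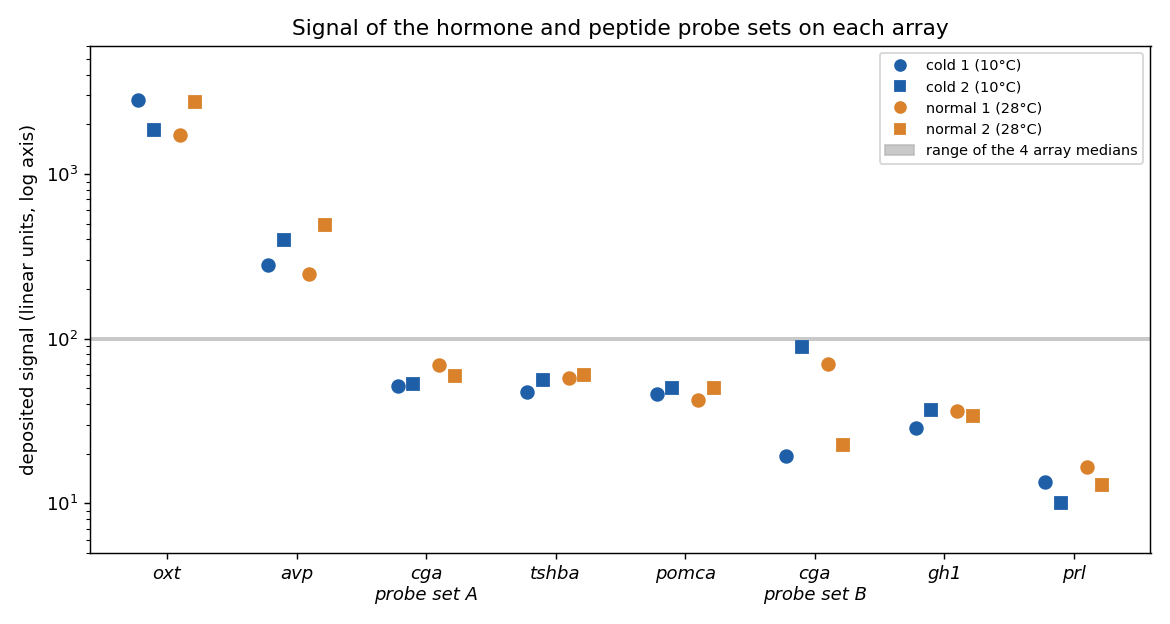
Signal of each of the 8 probe sets (log axis, linear signal units) on the 2 cold arrays (blue, left) and the 2 normal arrays (orange, right), with circles for set 1 and squares for set 2. The points of oxt and avp lie above the grey band of array medians, 96.3 to 101.8, and those of every pituitary hormone probe set lie below it.

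Isotocin gave a strong signal on every array. The oxt probe set had a signal of 2810.4 on cold 1 and 1844 on cold 2, against 1715 on normal 1 and 2729 on normal 2. It stood at percentiles 96.4 to 97.9 on the 4 arrays. The groups overlapped fully, with the lowest and the second-highest value both on normal arrays. The mean was 2327 ± 683 in cold and 2222 ± 717 in normal (SD, n = 2 each). The log2 fold change of cold over normal was 0.07 (standard error 0.37, adjusted p = 1 from limma), with a 95% interval of 0.566-fold to 1.96-fold. The direction depended on single arrays: the log2 fold change was -0.23 without cold 1, 0.38 without cold 2, -0.26 without normal 1 and 0.41 without normal 2.

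Within sets, oxt moved in opposite directions. In set 1 the cold array had 1.64 times the signal of the normal array, and in set 2 it had 0.676 times. Across labels the arrays resembled each other: cold 1 was 1.03-fold normal 2, and cold 2 was 1.07-fold normal 1. Being higher on cold 1 and lower on cold 2 than on the normal array of the same set was common, at 3426 of the 9301 kept probe sets (36.8%), and 974 (10.5%) did so by at least 1.4-fold both times, a fold chosen after the values of oxt had been seen.

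Like oxt, the summed markers of some other cells were higher on cold 1 and normal 2 than on the other arrays. The summed signal of 8 red blood cell genes was 20642 on cold 1 and 12463 on cold 2, against 14256 on normal 1 and 22064 on normal 2, and 6 of the 7 kept by the filter were higher on cold 1 and lower on cold 2 than on the normal array of the set. The summed signal of 8 genes of neurons was 28197 and 23314 on the cold arrays, against 20044 and 26253 on the normal arrays. Of the 8, 7 were higher on cold 1 and lower on cold 2 in the same way. Among these 7, elavl3 and elavl4 were higher on normal 1 than on normal 2, unlike oxt. A further kept probe set of elavl3 and both further ones of sypb were lower on the cold array in both sets, and the others of elavl3 were not. The genes elavl3, elavl4 and sypb were named after their values had been seen. None of the 8 neuronal genes lay below an array's median. The part of these differences in the signal of oxt was not tested. In pooled brain RNA, fewer cells of a type and less RNA per cell cannot be told apart.

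Vasotocin did not share the order of isotocin. The avp probe set had a signal of 281 on cold 1 and 394 on cold 2, against 247 on normal 1 and 493 on normal 2. Both extremes were on normal arrays, which differed by 1.995-fold, and both cold arrays lay between them, 1.4-fold apart. The percentile of avp lay between 73.9 and 85.2. Its mean was 338 ± 80.1 in cold and 369.7 ± 174 in normal (SD, n = 2 each).

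The log2 fold change of avp was -0.07 (standard error 0.49, adjusted p = 1 from limma), with a 95% interval of 0.427-fold to 2.13-fold. The ratio of cold to normal was 1.14 in set 1 and 0.801 in set 2. Against the normal array of the other set, cold 1 was 0.571-fold and cold 2 was 1.60-fold. The log2 fold change was 0.18 without cold 1, -0.31 without cold 2, -0.56 without normal 1 and 0.43 without normal 2. Of the members tested, 0 of 2 passed an adjusted p of 0.05, against 0 of 9301 probe sets higher in cold (0%) and 0 lower (0%). At an unadjusted p under 0.05, limma gave 0 of the 2 members, 18 of 9301 probe sets higher (0.194%) and 28 lower (0.301%). That is far fewer than this threshold gives when no probe set differs, so the p-values here run high. They are not evidence that a gene was unchanged in cold.

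The probe sets whose log2 signals, centred on their own mean, lay closest to a member over the 4 arrays were found among 6951 kept probe sets with 1 gene symbol. For oxt they were atp5md, which encodes a small subunit of the mitochondrial ATP synthase (distance 0.036 in log2 units), galnt7, an enzyme of O-glycosylation (0.058), and gabarapl2 of the autophagy machinery (0.065). The signal of atp5md was 2825 and 1894 on the cold arrays, against 1749 and 2839 on the normal arrays. For avp they were sik2b, a salt-inducible kinase gene (distance 0.011), ptprna, a membrane protein of hormone granules (0.053), and eml2, a microtubule-binding protein (0.071). The signal of sik2b was 490.1 and 694 on the cold arrays, against 435 and 864 on the normal arrays. With 4 arrays close matches were frequent: 215 probe sets lay within 0.25 of oxt and 48 within 0.25 of avp.

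Growth hormone and prolactin, related hormones of body growth and of salt balance in fish, had low signals throughout. The gh1 probe set had 28.7 on cold 1 and 36.7 on cold 2, against 36.4 on normal 1 and 33.8 on normal 2, at percentiles 11.4 to 16.9. The groups overlapped. The prl probe set had 13.5 and 10.1 on the cold arrays, against 16.6 and 12.8 on the normal arrays, at percentiles 1.3 to 3.9. Cold 1 lay above normal 2, so these groups overlapped too. The probe set of pomca, the precursor of corticotropin in the stress axis, had 45.9 and 49.9 on the cold arrays, against 42.2 and 49.9 on the normal arrays. Its highest and lowest values were 1.18-fold apart, the smallest range of the 8 probe sets. The suffix of its name (s_at) marks probes that can bind several related transcripts, so its signal cannot be given to pomca alone.

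Of the thyrotropin subunits, tshba had 47.0 and 55.8 on the cold arrays, against 57.9 and 59.7 on the normal arrays. Both cold arrays lay below both normal arrays, by little. The alpha subunit gene cga, which thyrotropin and the gonadotropins share, was measured by 2 probe sets that disagreed. With probe set A it had 51.5 and 52.9 on the cold arrays, against 69.0 and 59.6 on the normal arrays, again with both cold arrays lower. With probe set B it had 19.4 and 88.7 on the cold arrays, against 70.3 and 22.6 on the normal arrays, so cold 2 and normal 1 were high and cold 1 and normal 2 low.

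Probe set B of cga had the widest range of the members, with highest and lowest values 4.58-fold apart, whereas the other 5 pituitary hormone probe sets ranged by at most 1.65-fold. Its cold arrays alone were 4.58-fold apart, and a difference of at least 4-fold between cold arrays was found at 22 of 6201 probe sets below the filter (0.355%) and at 120 of all 15502 (0.774%). This 4-fold cut lies just under the value of probe set B, so these shares describe and do not test how rare such a difference is. For probe set B the ratio of cold to normal was 0.275 in set 1 and 3.92 in set 2. Of the 15502 probe sets, 624 (4.03%) had a cold 1 signal at or under 0.5 times that of normal 1, and 268 (1.73%) a cold 2 signal 2 or more times that of normal 2. No other member passed 2-fold within a set, while 1053 of the 15502 (6.79%) were higher by that much on cold 1 and 498 (3.21%) lower by that much on cold 2.

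Of the 6 pituitary hormone probe sets, 2 had both cold arrays below both normal arrays, namely tshba and probe set A of cga. Over all 15502 probe sets, 1487 (9.59%) had that order and 1595 (10.3%) the opposite one. In a fit of all 15502 probe sets, in which these 6 could be tested, the log2 fold change was -0.20 for tshba and -0.30 for probe set A of cga, each with a standard error of 0.21 and an adjusted p of 1 in limma. It was -0.32 for prl, -0.11 for gh1, 0.06 for pomca and 0.06 for probe set B of cga, and none of the 8 member probe sets passed. The 95% interval was 0.612-fold to 1.24-fold for tshba and 0.266-fold to 4.06-fold for probe set B of cga. With 2 arrays per condition, the number of arrays limits the precision of each value.

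Transcription factors of the developing and adult pituitary were represented by 14 of 22 listed genes, 8 of them kept by the filter and 6 below the median of every array, so the list spanned the signal range. The gene lhx3, needed to form the adenohypophysis, had signals of 33.3 and 37.2 on the cold arrays, against 42.4 and 38.3 on the normal arrays, and hesx1 of the early pituitary had 64.1 and 59.3, against 58.4 and 60.7. Both were below the filter and were named after their values had been seen. No probe set carried the symbol of pou1f1 or tbx19. For a gene with several probe sets, here and below, values are from the probe set with the highest mean signal. The neurogenic factor gene neurod1, of neurons as well as pituitary cells, had 2279 and 1947 on the cold arrays, against 2169.8 and 1654 on the normal arrays, and six3a of the forebrain had 508 and 466, against 311 and 511. The zinc finger gene gata2a had 220.3 and 337, against 255 and 269.8, and egr1, an immediate early gene, had 425 and 241, against 76.5 and 433. Of the 8 kept genes, 0 passed an adjusted p of 0.05 in limma and 0 an unadjusted p of 0.05, and the median log2 fold change was 0.22, against 0.04 over all kept probe sets. Over all 9301 kept probe sets, 0 passed the adjusted threshold in limma. At the unadjusted one, 18 (0.194%) were higher in cold and 28 (0.301%) lower. With shares this low, a count of 0, here and in the lists below, does not set a list apart.

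**Figure D2:**
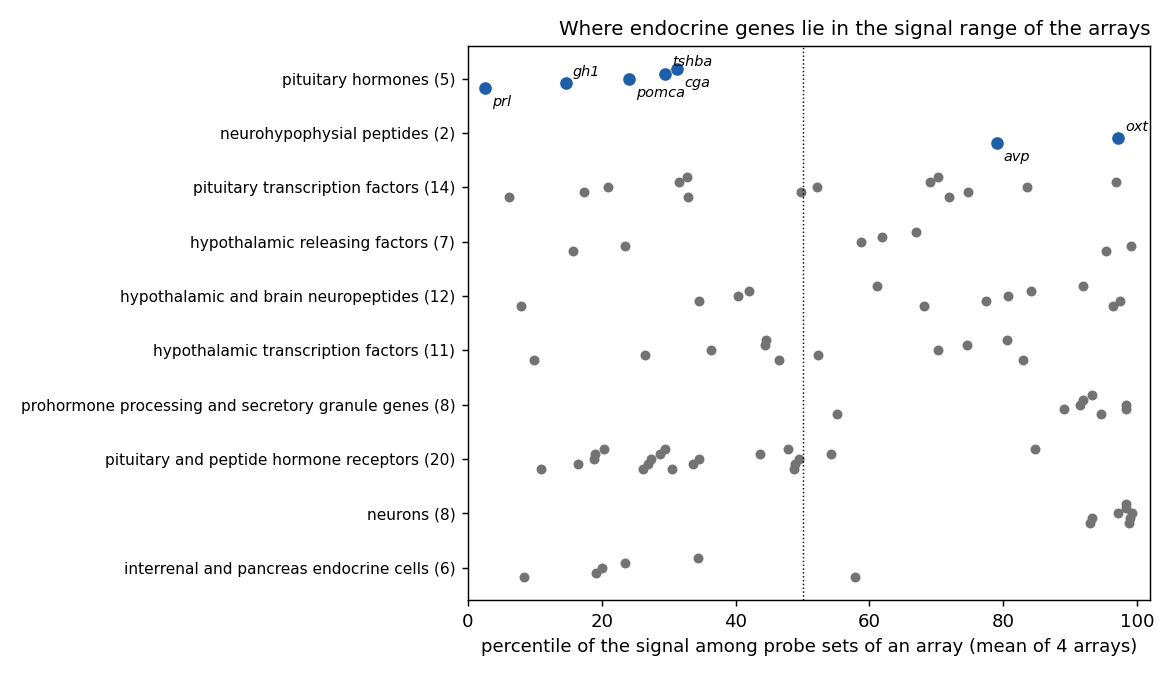
Percentile of the signal among the probe sets of an array (mean of the 4 arrays) for each gene with a probe set, read from the probe set with the strongest mean signal, in 10 gene lists, with the number of genes in brackets and a dotted line at the median. The pituitary hormone genes reach at most 31.3, as do most genes of the interrenal and pancreas, while oxt is at 97.2, avp at 79.0 and all 8 neuronal genes are at 93.0 or higher.

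Hypothalamic factors that act on the pituitary spanned the whole signal range. Of 23 listed, 7 had a probe set and 5 were kept. The gene adcyap1b encodes PACAP, a releasing peptide that is also widespread in the brain, and had signals of 5380.3 and 5161 on the cold arrays, against 4284 and 3647 on the normal arrays. The somatostatin gene sst1.1, whose product restrains growth hormone release, had 1229 and 1999, against 1300.0 and 1429. The gene gnrh2, for a gonadotropin-releasing hormone of the midbrain, had 229 and 148, against 161 and 228, and adcyap1a had 210.2 and 127, against 118 and 175. Both cold arrays were above both normal arrays for adcyap1b, an order found at 856 of the 9301 kept probe sets (9.2%), and the groups overlapped for the other 3. The gene gnrh3, for the gonadotropin-releasing hormone of the forebrain, was named after its values had been seen. With 1 probe set it had 10.8 and 9.09 on the cold arrays, against 13.8 and 12.7 on the normal arrays. With the other it had 146 and 141, against 129 and 123, so the groups of these probe sets separated in opposite directions. The probe sets of gnrh2, adcyap1a and this last one of gnrh3 carry the suffix explained for pomca, and their signals cannot be given to 1 transcript either. Among the 5 kept genes, 0 passed an adjusted p of 0.05 in limma and 0 an unadjusted p of 0.05, with a median log2 fold change of 0.19.

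The wider list of neuropeptide genes had 12 of 36 members with a probe set and 9 kept. The feeding peptide gene npy had signals of 2081 and 2645 on the cold arrays, against 1996 and 2427 on the normal arrays. The natriuretic peptide gene nppcl had 1538 and 2182, against 1793 and 1627, with a second probe set at 1597 and 1462, against 1453 and 929, and scg2a, a granin that is cut into secretoneurin, had 1055 and 1039.6, against 660.5 and 947. The gene pmchl encodes melanin-concentrating hormone, which pales the skin of fish, and had 482 and 353 on the cold arrays, against 361 and 794 on the normal arrays. Normal 2 stood above the other arrays for pmchl. Among the 9 kept genes, 0 passed an adjusted p of 0.05 in limma and 0 an unadjusted p of 0.05 (median log2 fold change 0.09). The gene pth2, for a peptide related to parathyroid hormone, was the only one of 5 listed further pituitary hormone genes with a probe set, although it is a brain neuropeptide, and had 316 and 193, against 177 and 209.

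Factors that pattern the hypothalamus were represented by 11 of 19 genes, 8 of them kept. In zebrafish, otpb and sim1a are needed for the neurons that make isotocin and vasotocin, and both were named after their values had been seen. The signal of otpb was 69.9 and 95.8 on the cold arrays, against 113 and 84.6 on the normal arrays, and that of sim1a, below the filter, was 58.5 and 68.2, against 70.0 and 69.3. The POU factor pou3f2b, whose mouse counterpart is needed for the same neurons, had 283 and 304, against 200.3 and 293, and pou3f1 had 542 and 449, against 421 and 322. The factor genes named for their signal also held sox3 (280.1 and 482, against 368 and 380.1) and the forebrain homeobox gene dlx5a (158 and 297, against 301 and 166). Of the 8 kept genes, 0 passed an adjusted p of 0.05 in limma and 0 an unadjusted p of 0.05 (median log2 fold change -0.01).

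Genes that process and store prohormones, which the peptide neurons share with other secretory cells, were represented by 8 of 21, all kept. Of these, 5 were above the 90th percentile on every array, and ptprn2, described with the other lists, lay below the median on cold 2 and normal 1. The granule protein gene syt4 had signals of 2958 and 3765 on the cold arrays, against 3113 and 3505 on the normal arrays. The gene scg5 encodes a chaperone of a prohormone convertase and had 3237 and 3239.7, against 3634 and 2888. The gene cpe, for the carboxypeptidase that trims peptide hormones, had 1079 and 1475, against 1166 and 1497, and ptprna had 892 and 1226, against 802 and 1530.1. Among these 8 genes, 0 passed an adjusted p of 0.05 in limma and 0 an unadjusted p of 0.05, and the median log2 fold change was 0.01.

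Receptors of the axes were mostly in the lower part of the signal range, with 20 of 59 listed genes on the array, 7 kept and 13 below the filter. The glucocorticoid receptor gene nr3c1, through which cortisol acts, had 421 and 472 on the cold arrays, against 548 and 489 on the normal arrays. The dopamine receptor gene drd3 had 123 and 119, against 108 and 110.1, and the thyroid hormone receptor gene thrb had 80.3 and 103, against 113 and 98.5. The gene mc4r, for a receptor of melanocortin peptides, had 98.5 and 95.8, against 101 and 88.6. Both cold arrays lay below both normal arrays for nr3c1 and above them for drd3, and the groups overlapped for thrb and mc4r. The probe sets of thrb disagreed. A second kept one had 82.8 and 80.4 on the cold arrays, against 111 and 101.5 on the normal arrays, with both cold arrays lower. Below the filter, 1 had 49.4 and 46.1, against 51.1 and 50.1, in the same order. It carries the suffix explained for pomca, so its signal cannot be given to 1 transcript. Another below the filter had 22.05 and 29.3, against 28.6 and 38.5, with groups that overlapped. Both further probe sets of nr3c1 had groups that overlapped, at 293 and 269, against 303 and 245, and at 138 and 129, against 200.3 and 127. Of the 7 kept genes, 0 passed an adjusted p of 0.05 in limma and 0 an unadjusted p of 0.05 (median log2 fold change -0.15).

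Targets and metabolic enzymes of the hormone axes included genes with wide differences between arrays. The gene cyp19a1b encodes the aromatase of radial glia, which makes oestrogen in the fish brain, and had 2345 and 1013 on the cold arrays, against 865 and 1817 on the normal arrays. A second kept probe set of it disagreed, with 149 and 135, against 178 and 165. The suffix of its name (x_at) marks probes that may bind other transcripts, so its signal cannot be given to cyp19a1b alone. The deiodinase gene dio2, whose product activates thyroid hormone, had 623 and 183, against 88.7 and 451, and was named after its values had been seen. Its ratio of cold to normal was 7.02 in set 1 and 0.405 in set 2. Both genes were high on cold 1 and normal 2, as oxt was. The glucocorticoid-induced gene fkbp5 had 472 and 913, against 835 and 615, and igfbp1a had 342 and 569, against 594 and 371, both high on cold 2 and normal 1. The binding protein gene igfbp2a had 667 and 658, against 452 and 626. Of 26 listed genes, 19 had a probe set and 15 were kept, of which 0 passed an adjusted p of 0.05 in limma and 0 an unadjusted p of 0.05 (median log2 fold change 0.12).

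Over these 8 further lists, which hold 60 kept genes in all, the cold 1 signal of 5 genes exceeded that of normal 1 by 2-fold or more and 0 genes were as far below it, against 818 (8.79%) and 477 (5.13%) of the 9301 kept probe sets. They were egr1, cyp19a1b, dio2, uts1 and ptprn2, the last pair named after their values had been seen. The gene uts1, for urotensin I of the corticotropin-releasing family, had 436 and 291 on the cold arrays, against 185 and 409 on the normal arrays, and ptprn2, a relative of ptprna, had 155 and 93.9, against 76.0 and 204. A second kept probe set of uts1, at 303 and 147, against 190.3 and 217, stayed under 2-fold. In set 2, 0 of the 60 were higher in cold by 2-fold or more, and 3 (pmchl, ptprn2 and dio2) were lower by that much, against 207 (2.23%) and 372 (4%). Higher on cold 1 and lower on cold 2 than on the normal array of the set were 17 of the 60, and 17 had the reverse order, against 36.8% and 32.8% of kept probe sets. Both cold arrays were above both normal arrays at 12 of the 60 genes, among them adcyap1b, gnrh3, scg2a, pou3f1, drd3 and igfbp2a, and below them at 5, among them nr3c1, against 856 (9.2%) and 600 (6.45%) of the 9301 kept probe sets. Among the 12 was also chga, named after its values had been seen, with 815 and 721, against 499.5 and 705. Its second kept probe set had both cold arrays below both normal arrays, at 681 and 406, against 682 and 750. None of the 60 passed an unadjusted p of 0.05 in limma, against 18 of 9301 kept probe sets higher (0.194%) and 28 lower (0.301%). At these shares a count of 0 does not set the 60 genes apart. The median log2 ratio of the 60 genes was 0.12 in set 1 and 0.06 in set 2, against 0.06 and 0.00 over all kept probe sets.

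**Figure D3:**
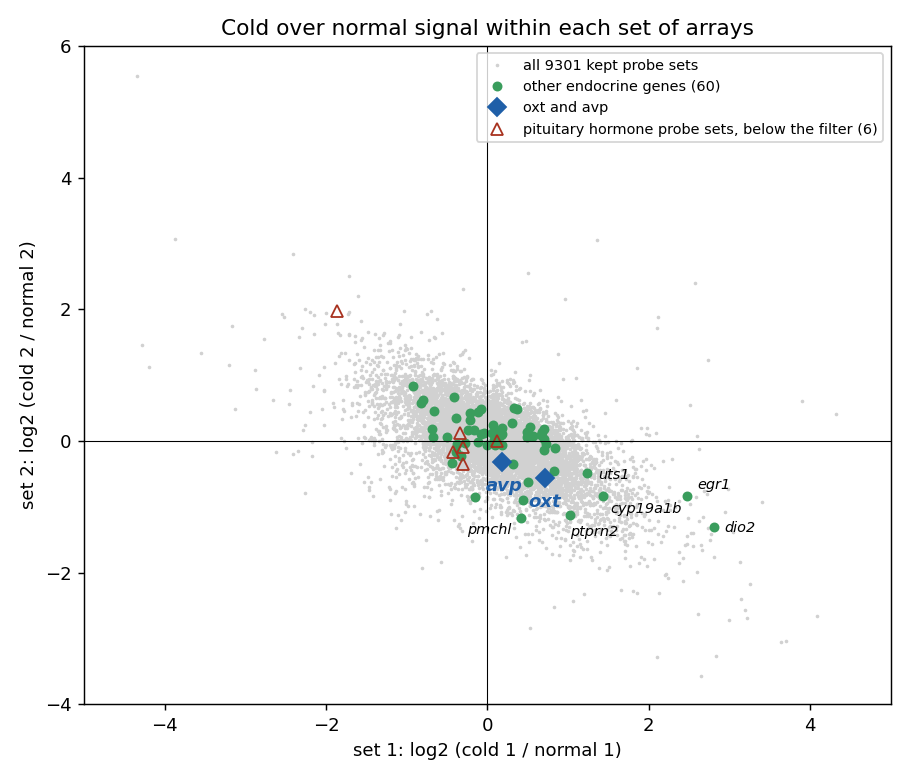
Log2 ratio of cold 1 to normal 1 (horizontal) and of cold 2 to normal 2 (vertical) for the 9301 kept probe sets (grey), 60 other endocrine genes (green), oxt and avp (blue) and the 6 pituitary hormone probe sets below the filter (open triangles). The genes oxt and avp lie to the lower right, higher on cold 1 and lower on cold 2 than on the normal array of their set, and probe set B of cga lies far to the upper left, at -1.86 and 1.97.

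Marker genes of other tissues also differed between the arrays, and their part in the values above was not tested. Of 12 kept muscle genes, the cold 1 signal of 9 was 2 or more times that of normal 1, against 818 of the 9301 kept probe sets (8.79%). The summed signal of the 14 muscle genes was 6608 on cold 1 and 1895 on cold 2, against 1807 and 1872 on the normal arrays. The summed signal of 11 epidermal and epithelial genes was 3562 and 5306 on the cold arrays, against 2465 and 2828 on the normal arrays. At an unadjusted p under 0.05 in limma, 3 of 7 kept epidermal genes and 1 of 12 kept muscle genes were higher in cold. Over all kept probe sets, 18 of 9301 (0.194%) were higher at that p. The marker genes were krt5, krt91 and icn2, with log2 fold changes between 1.91 and 2.21, and pvalb1 (2.25). Of them, 0 passed after adjustment, and all were named here after their values had been seen. The probe set of krt91 carries the suffix explained for cyp19a1b. The signal of pvalb1 was 474.5 on cold 1 and 76.0 on cold 2, against 31.8 on normal 1 and 49.9 on normal 2. Its ratio of cold to normal was 14.9 in set 1 and 1.52 in set 2, so its fold change rested mainly on cold 1. The filter used the mean over all 4 arrays, and pvalb1 passed it only through cold 1. So did pvalb4, named after its values had been seen, with 293.8 and 47.2 on the cold arrays, against 93.1 and 48.2. The muscle counts of 9 of 12 and 1 of 12 are therefore partly set by the filter. Of 20 genes of the pineal and photoreceptors, 14 lay below the median of every array. The summed signal of all 20 was 1598 and 1237 on the cold arrays, against 1157 and 2341 on normal 1 and normal 2. The high sum on normal 2 rested in large part on rbp4l, named after its values had been seen. It had 167 and 108 on the cold arrays, against 116 and 774. The 6 genes of radial glia and myelin summed to 26821 and 24192, against 20950 and 26253. Of these 6, 4 were higher on cold 1 and lower on cold 2 than on the normal array of the set, and 1 had the reverse order. That gene was gfap of radial glia, named after its values had been seen, with 376 and 666, against 1069 and 357. Of the 6 genes of the interrenal and pancreas, 5 lay below the median of every array, as all 5 pituitary hormone genes did. The 6 interrenal and pancreas genes summed to 313 and 372 on the cold arrays, against 371 and 336 on the normal arrays.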

How the data were processed

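RNA pooled from zebrafish brains was hybridized to 1-colour Affymetrix arrays, 2 labelled cold-stressed and 2 labelled normal. The authors scanned the arrays and deposited 1 linear intensity per probe set, made with Affymetrix software (MAS5 in the submitters' processing notes). The sources used here give no scaling target, and detection calls were not used. Trimmed means differed by at most 1.05 times, so arrays were not centred. Since the scaling is global, a shift of most transcripts would not be seen.

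After 115 control probe sets were left out, log2 intensities of 9301 probe sets above the 40th percentile of mean signal were tested. The test was limma 3.58.1 in R 4.3.3 (eBayes with a trend, unpaired, Benjamini-Hochberg adjustment, threshold 0.05). Its code was run on simulated arrays with less noise than these, a run that cannot show what the test detects here. The design of 2 unpaired classes was that of the study, whose SAM test was not run. The paper describes RNA sets from 3 acclimation experiments, whereas the 4 arrays analysed here were 2 per condition, so the number of samples differed. Symbols came from the platform annotation, updated through a gene table of assembly GRCz12tu that held 10711 of 10795 probe sets with 1 symbol. The members and lists were chosen with earlier results of these data known. Named by rule were all members, up to 4 genes with the highest signal per endocrine list and the 3 kept probe sets most like each kept member. Marker lists are given as sums and counts, with a few of their genes named in addition. The text says where a further gene was named after its values had been seen. Alternatives were quantile normalization, median centring, a pseudocount of 16, other filters, eBayes without a trend, a replicate block, and each array left out. A gene with several probe sets was read from the one with the highest mean signal.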

Additional observations from a re-analysis of the deposited data

How the results depend on the processing

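Dropping the filter or raising it to the 60th percentile, centring on medians, quantile normalization, adding 16 before log2, eBayes without a trend and leaving out each array in turn gave 0 called probe sets in limma, among the members, among the other endocrine genes and over all probe sets, as did counting every probe set of an endocrine gene. At an unadjusted p under 0.05, the count over all probe sets was highest without normal 2, at 204 higher and 150 lower. Of the members, only oxt and avp were tested at each of these settings, and the 6 pituitary hormone probe sets only without the filter. With the replicate number as a block, 0 probe sets were called and no call of a member changed. The log2 fold change, which a block cannot alter in this balanced design, stayed at 0.07 for oxt and -0.07 for avp. Deviations of same-numbered arrays from their group means correlated at -0.29 over the kept probe sets. With 2 arrays per condition both pairs give the same value, so it cannot say whether the numbers pair the arrays. With the crossed pairing as a block, added after seeing the data, 1 probe set of 9301 and 0 members were called. With an array left out, the log2 fold change of oxt lay between -0.26 and 0.41 and that of avp between -0.56 and 0.43. Over these runs the sign changed at 5 of the 8 member probe sets and at 25 of 34 other named endocrine and like genes. Under the other settings it changed at 0 and at 2. For oxt and avp, a change of filter, trend or block cannot alter the fold change, so those settings could not change its sign. For the other probe sets, the other settings were only quantile normalization, median centring and the pseudocount. Fits that leave an array out take the lone array of a condition to vary like the other condition. Signals near the bottom of the range, as at the pituitary hormone probe sets, bound what differences could be seen there.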
